A study of Mus musculus with 4 samples.

Results

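The promoters of the cytosolic ribosomal protein (RP) genes were examined for binding of topoisomerase IIβ (TOP2B) in mouse thymocytes. RP genes were taken by symbol from the protein-coding genes of GENCODE M1: Rpl or Rps followed by a number and, where present, a short suffix, together with Rplp0, Rplp1, Rplp2 and Rpsa. Processed copies carrying -ps in their symbol and the Rps6k kinases were left out. The rule gave 80 RP genes out of 22372 protein-coding genes, 48 for proteins of the large ribosomal subunit and 32 for proteins of the small subunit, on 19 chromosomes. Thymocytes came from the thymus of C57BL/6 mice aged 4 to 6 weeks, with no treatment or engineered allele named in the labels, and were fixed with formaldehyde. TOP2B was immunoprecipitated in 2 libraries, with a Santa Cruz antibody (sc13059) in one and a Novus Biologicals antibody (NB100-40842) in the other, and peaks were called in each library against an IgG library. The IgG library and a TOP2A library were not analysed here. There were 17754 Santa Cruz peaks, each 187 bp long, and 3564 Novus peaks, each 195 bp long. Peaks are given by position only, so that the height and the depth behind a single peak are unknown, and no expression of thymocyte markers could be checked. Each antibody was used in 1 library, which leaves no replicate error and no test. Thymocytes are a mixture of maturation stages, and a peak does not tell which of these cells carried it.

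TOP2B relaxes DNA by cutting both strands for a moment, moving another stretch of DNA through the opening and sealing it again, and is known to act at promoters and at the anchors of chromatin loops. RP genes are among the most highly transcribed genes of any growing cell. Their promoters usually start transcription within a pyrimidine stretch, the terminal oligopyrimidine (TOP) tract, which lets the translation of the mRNA follow nutrient signals, and commonly hold sites for ETS factors, YY1 and SP1. Loss of 1 RP gene copy is known to reduce ribosome production, and blood cell precursors are especially sensitive to it.

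At least 1 TOP2B peak of either list was centred within 1 kb of an annotated coding start of 26 of the 80 RP genes. Of these, 5 genes had peaks of both antibodies: Rpl15, Rpl30, Rpl36a, Rps13 and Rps23. The Novus calls at 4 of these genes, upstream of the gene in Rpl36a, Rps13 and Rps23 and in an intron of Rpl15, are shown because they are stretches of DNA near RP starts called in one library beside a call in the other. Sequences are from mm9, on the strand of the gene, 5′ to 3′. In Rpl15, capitals mark an SP1 match, and only the part of the call outside annotated exons is shown (chr14:19103141-19103294, minus strand). In Rps13, capitals mark the 79 bases that the Santa Cruz call shares (chr7:123477737-123477931, minus strand). The calls at Rpl36a (chrX:131119799-131119993, plus strand) and Rps23 (chr13:91062454-91062648, plus strand) held none of the motifs searched and have no capitals.
Rpl15: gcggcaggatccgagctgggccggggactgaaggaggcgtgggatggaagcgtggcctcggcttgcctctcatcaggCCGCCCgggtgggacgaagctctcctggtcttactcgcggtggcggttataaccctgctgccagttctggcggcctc
Rpl36a: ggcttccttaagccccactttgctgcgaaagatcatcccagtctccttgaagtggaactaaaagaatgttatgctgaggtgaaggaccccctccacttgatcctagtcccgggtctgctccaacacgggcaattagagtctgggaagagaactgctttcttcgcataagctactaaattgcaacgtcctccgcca
Rps13: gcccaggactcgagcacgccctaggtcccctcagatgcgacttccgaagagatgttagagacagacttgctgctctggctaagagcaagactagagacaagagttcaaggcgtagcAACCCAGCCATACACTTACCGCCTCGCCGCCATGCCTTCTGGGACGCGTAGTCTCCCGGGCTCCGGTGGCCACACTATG
Rps23: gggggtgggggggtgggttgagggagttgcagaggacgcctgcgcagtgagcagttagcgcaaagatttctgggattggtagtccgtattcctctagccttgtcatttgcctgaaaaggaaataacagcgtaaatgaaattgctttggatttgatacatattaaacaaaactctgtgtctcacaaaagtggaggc

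RP genes carried TOP2B peaks within 1 kb of a coding start more often than protein-coding genes as a whole, in each list. A Novus peak lay within 1 kb of a start in 11 of 80 RP genes, or 13.8% (exact Clopper-Pearson 95% interval 7.07% to 23.3%), beside 5.1% of all protein-coding genes. A Santa Cruz peak did so in 20 of 80, or 25% (interval 16.0% to 35.9%), beside 12.1% of all genes. Both intervals lie above the share of all genes, and cover counting error only. Peaks of both lists were found at 5 RP genes, or 6.25% (interval 2.06% to 14.0%), beside 2.1% of all genes, whose share lies just above the lower end of the interval. A common peak, in which a Novus and a Santa Cruz call share at least 1 bp, was found at 1 RP gene, Rps13, or 1.25%, beside 1.26% of all genes. Its interval, 0.0316% to 6.77%, is wide, since the count rests on 1 gene. A peak of either list was found at 32.5% of RP genes (interval 22.5% to 43.9%) and 15.1% of all genes. No test was made of these differences.

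RP promoters are rich in CpG, and so are the promoters at which peaks were called. In the window from 250 bp before to 50 bp after the reference start, a CpG-rich class was defined by at least 50% GC and at least 0.6 times the CpG number that base composition predicts. It held 58 of 80 RP genes (72.5%) and 42.5% of all protein-coding genes. Within this class a Novus peak was called at 15.5% of RP genes (interval 7.35% to 27.4%) beside 8.77% of all genes, and a Santa Cruz peak at 29.3% (18.1% to 42.7%) beside 19.3%. Peaks of both lists were called at 8.62% of the RP genes of the class (2.86% to 19.0%) beside 3.67%. Within the class, RP shares were again above those of all genes, but each interval reached below the share of all genes. The class was chosen after the first counts were seen.

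**Figure D1:**
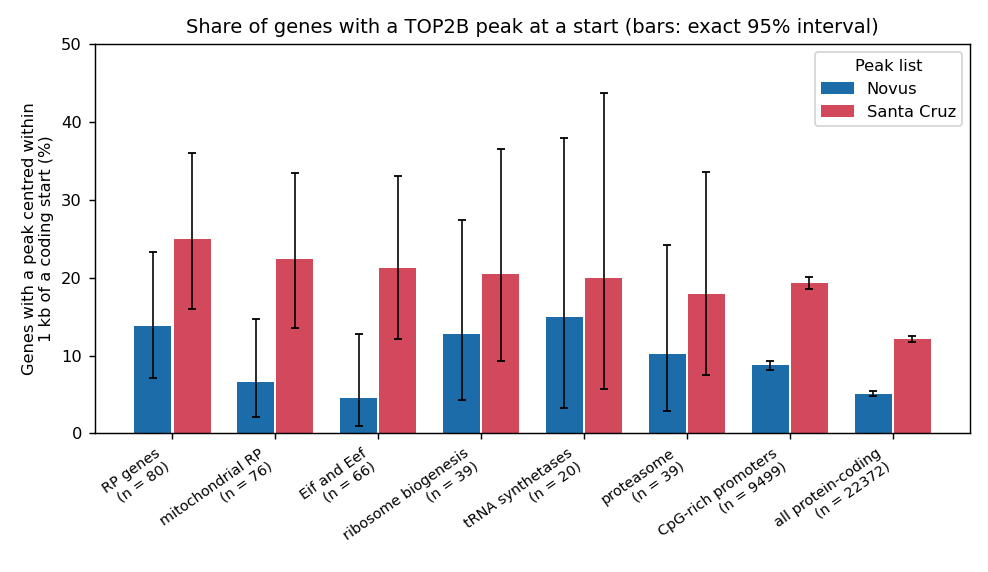
Share of genes (percent, vertical axis) with a TOP2B peak centred within 1 kb of a coding start, for RP genes and other gene lists (horizontal axis), in the Novus (blue) and Santa Cruz (red) lists, with exact 95% intervals for counting error as error bars. RP genes stand at 13.8% for Novus and 25% for Santa Cruz, beside 5.1% and 12.1% of all protein-coding genes.

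The annotation of RP genes also differs from that of other genes, and the counts were set beside it. RP genes had a median of 2 coding starts per gene, against 1 over all genes, and 44 of 80 had more than 1. With the 5′-most start of each gene alone, Novus peaks were at 12.5% of RP genes (4.71% of all genes) and Santa Cruz peaks at 23.8% (10.5%). RP genes are short, with a median length of 3306 bp against 15420 bp. When the whole gene and 5 kb on either side were counted, a Santa Cruz peak was near 37.5% of RP genes and 35.7% of all genes, a Novus peak near 18.8% and 11.4%, and both near 11.2% and 7.88%. For Santa Cruz peaks, RP genes thus differed from all genes at the starts, and in the wider window their share was near the background.

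At the 5 RP genes with peaks of both lists the calls mostly stood side by side. At Rps13, a protein of the small subunit, the Novus peak (chr7:123477737-123477931) was centred 130 bp upstream of the closest start and the Santa Cruz peak (chr7:123477629-123477815) 18 bp upstream, with 79 bp in common. At Rps23, which forms part of the decoding centre, the Novus peak (chr13:91062454-91062648) lay upstream, at −176 bp, and the Santa Cruz peak (chr13:91062744-91062930) at +59 bp, in an intron, with 95 bp between them. At Rpl36a, a protein of the large subunit, the Novus peak (chrX:131119799-131119993) lay at −297 bp and the Santa Cruz peak (chrX:131120106-131120292) at +6 bp, over an annotated exon. In these 3 genes the Novus call was thus the farther upstream and the Santa Cruz call the nearer to the start.

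Rpl15 and Rpl30, both for proteins of the large subunit, have several coding starts. The Novus peak of Rpl15 (chr14:19103100-19103294) was centred 57 bp upstream of its closest start and the Santa Cruz peak (chr14:19102898-19103084) 149 bp downstream, with a gap of 15 bp. That start is 765 bp downstream of the first annotated start of Rpl15, so that both calls lie inside the gene as annotated. The order was the other way round at Rpl30, where the Santa Cruz peak (chr15:34373172-34373358) lay 130 bp downstream of the first start and the Novus peak (chr15:34372814-34373008) 66 bp downstream of a second one, 418 bp further into the gene. The centres of the calls in the 5 genes were 112 to 354 bp apart, with a median of 286 bp. Over the 469 protein-coding genes with peaks of both lists, the median was 134 bp. Overlapping calls were found at 1 of 5 RP genes (20%) and 281 of those 469 genes (59.9%), which is a description over 5 genes.

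**Figure D2:**
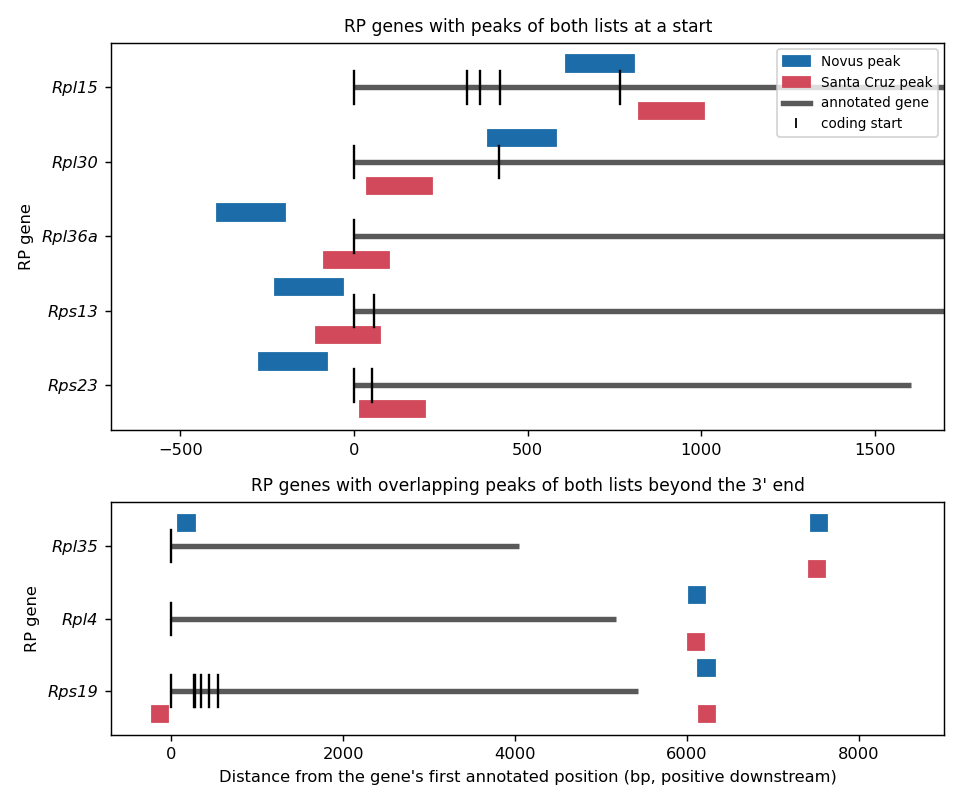
Maps of RP genes with calls of both lists, by distance in bp from the first annotated position of each gene (horizontal axis, positive downstream), with the annotated gene as a grey bar, coding starts as black ticks and peaks as blue (Novus) and red (Santa Cruz) boxes drawn to scale. In the upper panel only the calls of Rps13 overlap, whereas the lower panel shows overlapping calls beyond the 3′ ends of Rpl35, Rpl4 and Rps19.

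A Novus peak and no Santa Cruz peak was found at 6 RP genes. Of these, Rpl10 encodes a protein that joins the large subunit late, in the cytoplasm, and its peak was centred 17 bp downstream of a start (chrX:71516071-71516265), over an exon. The peak of Rpl26, whose product lies near the exit of the peptide tunnel, was centred 88 bp upstream (chr11:68714900-68715094). Rps21, for a protein of the small subunit, had its peak at +256 bp (chr2:179992241-179992435). Rps2, whose product lines the mRNA entry channel, had one at −279 bp from its closest start (chr17:24856632-24856826), inside an intron. That start is 1947 bp downstream of the first annotated start of Rps2, so that the call lies inside the gene. Rpl35, also of the tunnel exit, had its peak at +178 bp (chr2:38860869-38861063), over an exon, and Rpl10a, of the large subunit, at +623 bp (chr17:28465942-28466136), in an intron. By this selection no Santa Cruz call was centred within 1 kb of these starts. The closest Santa Cruz centre was 6.07 kb to 169.7 kb away, with a median of 9.286 kb. A Novus peak without a Santa Cruz peak was common over all genes as well. Of the 1142 protein-coding genes with a Novus peak, 469 also had a Santa Cruz peak, beside 5 of 11 RP genes.

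A Santa Cruz peak and no Novus peak was found at 15 RP genes, and those with centres closest to a start were Rps9, Rpl29, Rps27a, Rps15 and Rpl5. The peak of Rps9, whose product lies at the mRNA entry, was centred 8 bp upstream of a start (chr7:3655539-3655725), and that of Rpl29, a protein of the large subunit, 13 bp downstream (chr9:106331705-106331891). Rps27a, which encodes ubiquitin fused to a ribosomal protein, had 2 Santa Cruz peaks, at +29 bp (chr11:29447738-29447924) and −369 bp (chr11:29448385-29448571), and was the only RP gene with more than 1 peak of a list within 1 kb. Rps15, of the decoding region, had its peak at +52 bp (chr10:79755349-79755535). Rpl5, which carries a small ribosomal RNA into the large subunit and binds MDM2 when ribosome assembly fails, had its peak at +111 bp (chr5:108329539-108329725).

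The other 10 genes of this group were Rpl3, Rpl8, Rpl24, Rpl37a, Rpl9, Rps10, Rps14, Rps19, Rps20 and Rps29, with centres between −886 bp (Rps10) and +557 bp (Rps29). At Rpl24 the closest start is 7529 bp downstream of the first one, so that the call, at −185 bp, lies inside the gene. Rpl3 helps to shape the peptidyl transferase centre, and its Santa Cruz peak was centred at +187 bp. At Rpl9 the peak, at −277 bp, was closer to the start of the divergent neighbour Lias, a lipoic acid synthase gene, with its centre 179 bp downstream of that start. A Santa Cruz peak without a Novus peak was also common over all genes. Of the 2709 protein-coding genes with a Santa Cruz peak, 469 also had a Novus peak, beside 5 of 20 RP genes. The closest Novus centre to the 15 RP genes of this group was 3.498 kb to 1608 kb away, with a median of 103.3 kb. Both single-list groups were defined by having no centre of the other list within 1 kb, so short distances were left out in advance. The Novus list also holds fewer peaks, 3564 against 17754. These distances, drawn in the plot of the closest peak per gene, were not measured over all genes and have no background beside them.

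**Figure D3:**
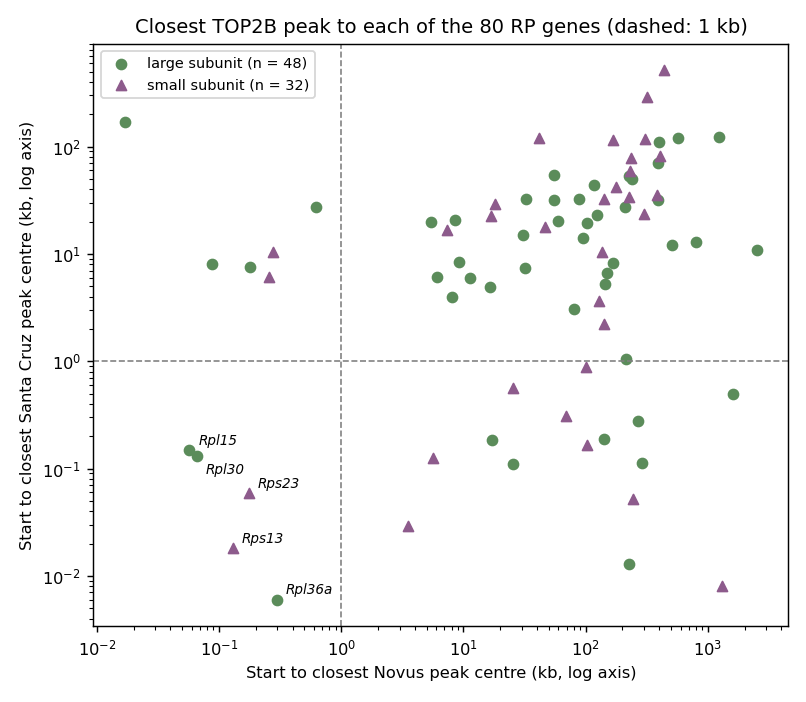
Distance in kb (log axes) from a coding start of each of the 80 RP genes to the closest peak centre of the Novus list (horizontal) and of the Santa Cruz list (vertical), 1 point per gene (circles for the large subunit, triangles for the small), with dashed lines at 1 kb. The 5 named genes lie within 1 kb on both axes, and 54 genes lie beyond 1 kb on both.

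Around the starts, calls fell on either side without a gap. The 11 Novus peaks were centred from −297 to +623 bp of the closest start, 6 upstream and 5 downstream, with a median of −57 bp. The 21 Santa Cruz peaks ranged from −886 to +557 bp, 9 upstream and 12 downstream, with a median of +13 bp. Within 200 bp of the start lay 7 Novus peaks (63.6%) and 15 Santa Cruz peaks (71.4%). Among all peaks within 1 kb of a coding start these shares were 57.2% of 1058 Novus and 46.2% of 2691 Santa Cruz peaks. Distances were taken to the closest coding start, and RP genes had a median of 2 such starts against 1 over all genes. Whether this affected the shares was not tested. By annotation, Novus calls at RP starts lay 4 times over an exon, 3 times in an intron and 4 times upstream, and Santa Cruz calls 9, 5 and 7 times.

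**Figure D4:**
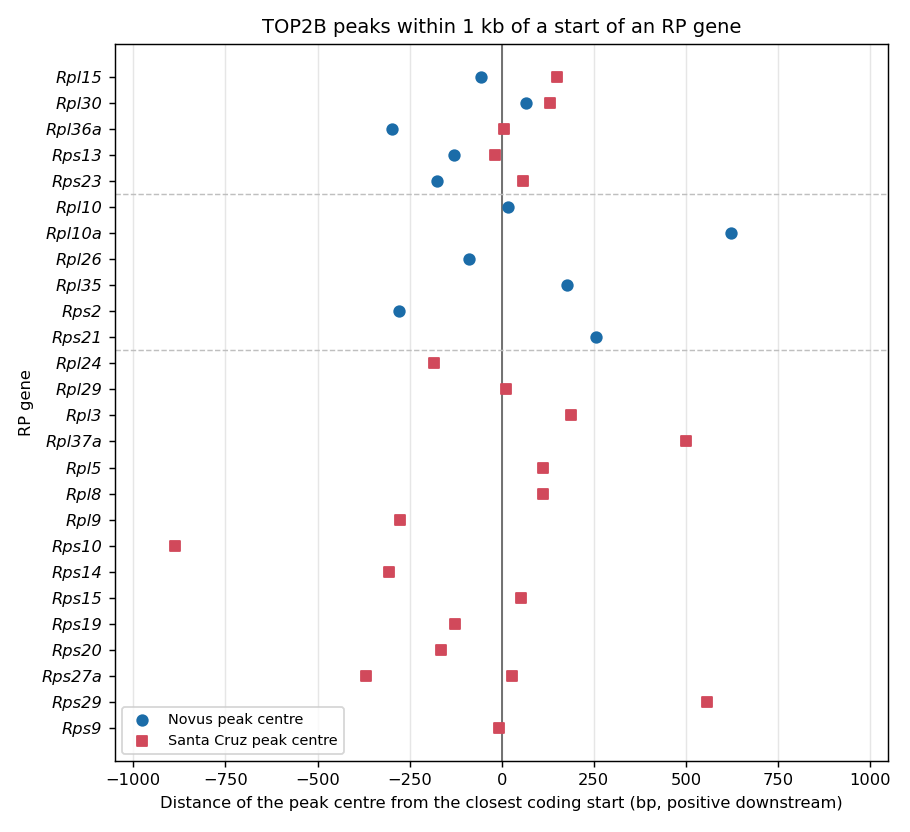
Peak centres within 1 kb of a coding start of an RP gene, by signed distance in bp to the closest start (horizontal axis, negative upstream) and by gene (vertical axis), for the Novus and Santa Cruz lists. Centres gather around 0, with 7 of 11 Novus and 15 of 21 Santa Cruz peaks within 200 bp.

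TOP2B is known to sit beside CTCF at loop anchors, and the calls at RP starts were searched for the CTCF motif. A CTCF core with at most 1 mismatch within 250 bp of the centre was found at 0 of 11 Novus calls (exact interval 0% to 28.5%) and 1 of 21 Santa Cruz calls (4.76%, 0.121% to 23.8%), the one at Rpl5. Among all calls at coding starts it was found at 11.2% of Novus and 10.6% of Santa Cruz calls, and in the whole lists at 25.6% and 15.9%. The shares at coding starts lie inside both intervals, so that a difference was not detectable with this number of calls. The GC content of the calls at RP starts had a median of 57.4% in the Novus list and 58.3% in the Santa Cruz list, beside 63.1% and 59.4% for all calls at coding starts.

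No peak of either list was centred within 1 kb of a start in 54 RP genes, and 44 had none within 5 kb of the gene. Lacking a call at a start was more common over all genes: a peak of either list was at 32.5% of RP genes and 15.1% of all genes. Within 5 kb of the gene, a Santa Cruz peak was near 37.5% of RP genes and 35.7% of all genes, and a Novus peak near 18.8% and 11.4%. The 10 genes with a peak in that wider window and none at a start included Rpl13a, Rpl14, Rpl21, Rpl23a, Rpl27, Rpl32, Rpl3l, Rpl4 and Rps15a. At the limit of 1 kb, the farthest peak inside was that of Rps10, at −886 bp, and the nearest outside was a Santa Cruz peak 1055 bp upstream of Rpl32 (chr6:115759727-115759913). Over the 54 genes, the closest Santa Cruz centre had a median distance of 23.19 kb and the closest Novus centre one of 140.6 kb. Such distances were not measured for other genes without a peak.

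The closest coincidence of both antibodies was beyond the 3′ ends of 3 RP genes. At Rps19, whose loss in 1 copy is the best known cause of Diamond-Blackfan anaemia, calls of both lists were centred 799 bp (Novus, chr7:25675527-25675721) and 801 bp (Santa Cruz, chr7:25675533-25675719) past the 3′ end, 2 bp apart, with a CTCF core. Beyond Rpl35 the centres were 25 bp apart (chr2:38853508-38853702 and chr2:38853537-38853723), with a CTCF core, at −234 bp and −209 bp of the start of Wdr38. Beyond Rpl4 they were 9 bp apart (chr9:64027217-64027411 and chr9:64027212-64027398), with no CTCF core at the limit of 1 mismatch. They lay 210 bp and 201 bp downstream of the start of Snapc5, which encodes a subunit of the complex that binds and activates the promoters of small nuclear RNA genes. With Rps13, these were the 4 RP genes (5%) with a common peak within 5 kb. The share of all genes with a common peak in this window was not counted, so this count has no background beside it. The Novus calls at Rps19 and Rpl4 are shown from mm9, on the plus strand, 5′ to 3′, and capitals mark the core in Rps19. The Rpl4 call has no core only by the limit of 1 mismatch. Its stretch gcactagagggg differs from the core at the first and the last base.
Rps19: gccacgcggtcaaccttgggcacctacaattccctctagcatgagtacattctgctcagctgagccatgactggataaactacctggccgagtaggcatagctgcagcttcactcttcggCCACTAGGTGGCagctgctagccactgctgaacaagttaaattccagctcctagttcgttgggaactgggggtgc
Rpl4: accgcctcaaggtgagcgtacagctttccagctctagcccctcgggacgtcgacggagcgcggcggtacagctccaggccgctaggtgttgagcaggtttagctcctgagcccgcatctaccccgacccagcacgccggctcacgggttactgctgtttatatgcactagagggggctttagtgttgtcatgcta

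Large and small subunit genes did not stand apart. A Novus peak was at 7 of 48 large subunit genes (14.6%, interval 6.07% to 27.8%) and 4 of 32 small subunit genes (12.5%, 3.51% to 28.99%). A Santa Cruz peak was at 10 of 48 (20.8%, 10.5% to 34.99%) and 10 of 32 (31.2%, 16.1% to 50.01%), and peaks of both lists at 6.25% of either. These intervals overlap widely, so that a difference between subunits was not detectable with this number of genes.

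RP genes linked to disease were followed as lists. Of 4 RP genes that are mutated in human T-cell leukaemia (Rpl5, Rpl10, Rpl11 and Rpl22), Rpl10 had a Novus peak and Rpl5 a Santa Cruz peak, and Rpl11 and Rpl22 had none. Of 16 genes of Diamond-Blackfan anaemia, a failure of red cell precursors, 2 had a Novus peak (12.5%; Rpl15 and Rpl26) and 5 a Santa Cruz peak (31.2%; Rpl15, Rpl5, Rps10, Rps19 and Rps29). Both shares were near those of the 80 RP genes. None of the 3 paralogs of narrow expression, Rpl3l of muscle, Rpl10l of testis and Rpl39l, had a peak within 1 kb of a start. The closest was a Santa Cruz peak 3.937 kb from an internal coding start of Rpl3l. It was centred 473 bp past the 3′ end of Rpl3l, at −20 bp from the start of Sepx1.

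Many RP genes hold small nucleolar RNA (snoRNA) genes in their introns, which guide the modification of ribosomal RNA. A peak of either list was at 7 of 30 host genes (23.3%, interval 9.93% to 42.3%) and 19 of 50 other RP genes (38%, 24.7% to 52.8%). Host genes with a Novus peak made up 13.3% and other genes 14%, whereas Santa Cruz peaks were at 16.7% and 30%, with overlapping intervals. The start of another protein-coding gene lay within 1 kb of a start of 14 RP genes, of which 2 had a Novus peak (Rpl15 and Rps2) and 3 a Santa Cruz peak (Rpl15, Rpl9 and Rps27a). In the 66 RP genes without such a neighbour, Novus peaks were at 13.6% and Santa Cruz peaks at 25.8%, close to the shares of all RP genes. Among the 19531 protein-coding genes left by the same exclusion, the shares were 4.56% and 11.2%.

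Other genes of protein synthesis and turnover were counted in the same way. Mitochondrial ribosomal protein genes had a Novus peak in 5 of 76 (6.58%, interval 2.17% to 14.7%) and a Santa Cruz peak in 17 (22.4%, 13.6% to 33.4%), with both at Mrpl14, Mrpl17, Mrps14 and Mrps16. Genes with Eif or Eef symbols, which include kinases of translation factors such as Eif2ak4 and Eef2k, had a Novus peak in 3 of 66 (4.55%) and a Santa Cruz peak in 14 (21.2%). Peaks of both lists were at Eif2ak4, a kinase of initiation factor eIF2 that answers amino acid shortage. The cytosolic RP genes thus had the higher Novus share of the 3 groups, with intervals that overlap, while the Santa Cruz shares were alike. Over all protein-coding genes the shares were 5.1% (Novus) and 12.1% (Santa Cruz). A Santa Cruz share above that of all genes was therefore not particular to RP genes.

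Ribosome biogenesis genes had a Novus peak in 5 of 39 (12.8%) and a Santa Cruz peak in 8 (20.5%), with both at Heatr1 and Nop14, which act in the processing of small subunit RNA. Cytosolic aminoacyl-tRNA synthetase genes had 3 (15%) and 4 (20%) of 20, with both at Lars, and proteasome subunit genes 4 (10.3%) and 7 (17.9%) of 39, with both at Psma1 and Psmb9. Psmb9 and Psmd14 have 2 gene entries each and were counted once. Of 6 ribosome components outside the naming rule, Rpl36al had a Novus peak, and Gnb2l1, which encodes the scaffold RACK1, and Rpl7l1 had a Santa Cruz peak. The Novus and Santa Cruz shares of the biogenesis, synthetase and proteasome lists thus lay inside the intervals of the RP genes.

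Promoter letters of RP genes were compared with those of all genes, as descriptions. In the window from 250 bp before to 50 bp after the reference start, on both strands, the ETS letters CCGGAAG were found in 24 RP genes (30%) and 10.8% of all genes. The YY1 letters AANATGGC were in 11.2% and 6.7%, the SP1 letters GGGCGG in 47.5% and 43.9%, and the NRF1 motif in 1.25% and 1.16%. The CTCF core was in 8.75% and 4.62%, and the letters TATA, 20 to 40 bp before the start, in 5% and 5.73%. The ETS letters were found in 35.5% of mitochondrial ribosomal protein genes and 28.4% of Eif and Eef genes, close to the RP share, and in these lists the YY1 letters were in 22.4% and 19.4%. With windows at any coding start, added after these values were seen, the ETS letters were in 41.2% of RP genes and 13.8% of all genes. Windows from RefSeq, matched for 59 RP genes, gave 40.7% and 13%.

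RP genes with and without a peak were then set side by side. At the reference start the ETS letters were in 3 of 26 genes with a peak (11.5%) and 21 of 54 without (38.9%). With windows at any coding start the shares were 38.5% and 42.6%, and in the RefSeq windows 33.3% and 43.9%. Over the genome the order was the other way. Among all protein-coding genes with a peak the letters were in 18.5% at the reference start, beside 10.8% of all genes. At any coding start these genome shares were 23.9% and 13.8%. Of the 26 RP genes, those with a Santa Cruz peak held the letters in 1 of 20 (5%) at the reference start, in 35% at any coding start and in 2 of 12 (16.7%) of the RefSeq windows, and those with a Novus peak in 18.2%, 45.5% and 50%. The gap between RP genes with and without a peak thus changed in width with the window and the list. For RP genes with a Novus peak its direction changed too. Their share was below that of RP genes without a peak at the reference start, and above it in the other windows. The gap rests on few genes. In genes with several starts the reference start need not be the one beside the peak.

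A TOP tract, searched as C at the start followed by at least 4 pyrimidines, was at the reference start of 3 RP genes, or 3.75%, among them Rpl14 and Rps21, and of 1.99% of all genes. With any coding start it was found in 20% of RP genes and 4.04% of all genes, and with RefSeq starts in 22% and 2.73%. Annotated starts are not exact to the base, which limits this count. The promoters of Rpl14 and Rps21 are shown from mm9 on the strand of the gene, 5′ to 3′, from 100 bases before to 20 bases from the start, because they hold the start signature of the family. Capitals mark the pyrimidine run at the start, of 8 bases in Rpl14 and 7 in Rps21, and the ETS letters. The stretches are chr9:120480532-120480651 and chr2:179991982-179992101, both on the plus strand. Rps21 had a peak within 1 kb of a start and Rpl14 had none.
Rpl14: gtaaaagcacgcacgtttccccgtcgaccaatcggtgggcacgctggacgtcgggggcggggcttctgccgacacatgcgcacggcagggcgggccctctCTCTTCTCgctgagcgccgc
Rps21: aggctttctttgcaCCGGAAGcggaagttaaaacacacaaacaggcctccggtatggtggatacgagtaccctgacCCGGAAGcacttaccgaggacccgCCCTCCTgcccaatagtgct

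RP genes have many processed copies in the genome, and a read that fits several places may not be placed at any of them. Within 500 bp of the reference start, a median of 100% of stretches of 75 bases, the read length, occurred once in mm9 in RP genes, as in all genes. The lowest share was 71.3%, at Rps29, and no RP gene was under 50%, which 1033 of the 22372 protein-coding genes were. Genes without a peak had shares of at least 91.4%. The lower quartile was 98.14% in RP genes without a peak, 99.46% in those with one and 100% over all genes. Only exact repeats were counted, so copies that differ by single bases were not seen. Whether repeated sequence affected the calls was not tested.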

How the data were processed

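TOP2B ChIPseq libraries were made by ChIPmentation and sequenced as single-end reads of 75 bp. Depth, as the study states it, was 76000000 reads with Santa Cruz (64% mapped to 1 place) and 62000000 with Novus (65%). After trimming, the authors used Bowtie 1.2.0 for alignment to mm9 and HOMER in factor style for peaks, per library, at least 10-fold over IgG and at an FDR of 1%. The deposited values are peak positions, and the deposited score was 0 in every row, so that no ranking or stricter list could be made. Both lists and GENCODE M1 use mm9.

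A peak was assigned to a gene where its centre lay within 1 kb of the start of any protein-coding transcript. Shares carry exact Clopper-Pearson 95% intervals, for counting error only, and PCR duplicates and calling error are not covered. Motif letters were searched on both strands, except the start signatures, and the CTCF core allowed 1 mismatch. Every RP gene with a Novus peak was named, and of those with Santa Cruz peaks alone the 5 closest to a start and those with more than 1 peak; of other lists, up to 4 genes with peaks of both lists. Gene entries of other lists that share a symbol were counted once for peaks. Further genes were named after their values were seen. RP genes and lists were chosen with earlier results of these data known. Assignment was tested on simulated data, with 200 of 200 genes recovered. Tools were numba 0.67.0, scipy 1.17.1, numpy 2.4.6, matplotlib 3.10.9 and pyfaidx 0.9.0.4 in Python 3.11.15. A gene and a sequence are not reported here.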

Additional observations from a re-analysis of the deposited data

How the results depend on the processing

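Of the counts of RP genes and peaks, most stayed within 1.5 times the reported count under distances of 500 bp and 2.5 kb, other sets of starts, peak edges in place of centres, and without genes that share the window with another gene's start. Novus genes numbered 9 to 15 and Santa Cruz genes 17 to 30, where the counts of 9 and 17 are out of 66 genes. Over all genes, the Novus share ran from 4.35% to 11.4% and the Santa Cruz share from 9.44% to 35.7%. The 30 Santa Cruz genes, within 5 kb of the gene, were 37.5% of RP genes beside 35.7% of all genes. The exceptions to the limit of 1.5 times were genes with peaks of both lists, 9 when the gene and 5 kb on either side were counted, and genes with a common peak, reported as 1. The latter came to 4 within 5 kb of the gene, 5 with centres within 1 kb of each other, and 0 when the shared bases had to cover 50% or more of each call. Both windows take in more calls by construction, and the overlap fewer. For common peaks, the shares of all genes under these settings were not counted. Motif windows added after the data were seen moved the share of peak-bearing RP genes with ETS letters from 11.5% to 38.5% and 33.3%, and the TOP share of RP genes from 3.75% to 20% and 22%. No stricter list could be drawn, since the score ranks no peak, and no replicate could be left out. No paired analysis was possible because each antibody has 1 library and no test was made. The absence of a call says only that no peak passed the authors' threshold in that library.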

Other observations

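Loci of RP copies with -ps in their symbol, mostly processed copies, were counted beside the genes. Of 163 such loci, 55 of them annotated as protein-coding, none had a Novus peak within 1 kb of its annotated 5′ end, and 3 (1.84%) had a Santa Cruz peak. For comparison, 0.267% of the bases of the chromosomes with peaks lie within 1 kb of a Novus centre and 1.32% within 1 kb of a Santa Cruz centre, so that the counts at these loci were near the genome background. These were Rpl35a-ps2, Rpl34-ps1 and Rpl36-ps3, none of them within 1 kb of another coding start. The parent genes Rpl35a, Rpl34 and Rpl36 had no peak of either list within 1 kb of a start. How uniquely reads map at the copies was not measured.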
